A study of Mus musculus with 18 samples.

Results

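The genes described here are a set of 43 cell cycle and DNA replication genes: 21 that act at the start of S phase or in the copying of DNA (S-phase members) and 22 that act in G2 and mitosis (mitotic members). Their RNA was followed in MEFs of 3 genotypes; MEFs are fibroblasts, the cells of connective tissue, taken from mouse embryos into culture. A member was taken from the gene-level rows that carry 1 gene symbol, matched to its name or an older synonym (Cdk1 was once Cdc2a), and where a gene had several rows the row with the highest mean over the 9 samples was kept. This gave 39 of the 43 genes, 19 S-phase and 20 mitotic, out of 14847 genes named in this way on 23332 rows. Pcna was found only among the exon-level probe sets, and Rrm2, Ccnb1 and Cenpf had no row under a single symbol in either table.

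The groups were AGO2 null MEFs (genotype AGO2 -/-), Dicer null MEFs and wild-type MEFs, with 3 Affymetrix Mouse Exon 1.0 ST arrays each. All were grown for 3 days to a density of 70 to 80% in medium with 7% fetal calf serum and antibiotics. Ago2 encodes the Argonaute protein that binds small RNAs and can cut their targets, and Dicer1 encodes the enzyme that releases microRNAs from their precursors. The AGO2 null cells were obtained from a different laboratory than the Dicer null and wild-type cells, and each genotype is 1 line as far as the labels say, so line, source and genotype cannot be told apart. The labels call the triplicates biological replicates but name no separate lines or animals. The spread behind the p-values is that among these arrays, and how much of it is technical is not known.

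The cell cycle runs from a G1 gap through S phase, in which DNA is copied, and a G2 gap into mitosis. In G1 the loading factors Cdc6 and Cdt1 place the ring of Mcm2 to Mcm7 on origins, and Cdk2 with cyclin E helps to fire them; in mitosis the kinases Cdk1, Aurora and Plk1 drive spindle assembly while the Bub and Mad proteins hold the anaphase-promoting complex back until chromosomes are attached. Transcription of the S-phase genes is classically ascribed to E2F factors and that of mitotic genes to complexes that bind the cell cycle homology region (CHR) and the nearby CCAAT box. Most of these RNAs are low in resting cells and rise as cells divide, so their level in bulk RNA depends both on the share of dividing cells and on RNA per cell, which cannot be told apart in these samples.

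In the promoters of the set, E2F letters were more frequent among S-phase members and CHR letters among mitotic members, while CCAAT was frequent in both. RefSeq start sites on mouse GRCm38.p6 gave windows from 250 bases before to 50 bases after the start for 34 of the 43 members, 17 S-phase and 17 mitotic, found by symbol; Ccne2, Mcm4, Gins1, Gins2, Ccna2, Cdc25c, Aurkb, Kif20a and Tpx2 were not matched. The letters TTTCCCGC, TTTCGCGC, TTTGCCGC or TTTGGCGC, taken as E2F sites and searched on both strands, stood in 9 of the 17 S-phase windows (52.9%), in 1 of the 17 mitotic windows (5.88%) and in 2.26% of all 32851 windows. The CHR letters TTTGAA or TTCGAA stood in 3 S-phase windows (17.6%), 13 mitotic windows (76.5%) and 19.2% of all windows. The letters CCAAT stood in 12 S-phase windows (70.6%), 15 mitotic windows (88.2%) and 37.4% of all windows. Mcm7 had 2 windows and was counted once, with a match in either, whereas the share over all windows counts each window. A match is a description of letters and not a bound site. Windows of 5 members that the results below turn on are printed 5′ to 3′ on the strand of the gene, with these letters in capitals on either strand; E2F matches on opposite strands overlap in the Mcm5 window.
Cdt1, chr8:122567765-122568064, plus strand, with an E2F match just after the start: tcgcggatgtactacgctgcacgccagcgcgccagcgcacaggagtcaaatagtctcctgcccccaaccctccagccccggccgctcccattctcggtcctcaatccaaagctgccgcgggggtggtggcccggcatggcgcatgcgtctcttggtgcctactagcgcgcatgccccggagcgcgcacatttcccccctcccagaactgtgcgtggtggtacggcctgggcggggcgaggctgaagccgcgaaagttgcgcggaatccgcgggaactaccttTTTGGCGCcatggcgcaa
Mcm5, chr8:75109259-75109558, plus strand, with E2F and CCAAT matches: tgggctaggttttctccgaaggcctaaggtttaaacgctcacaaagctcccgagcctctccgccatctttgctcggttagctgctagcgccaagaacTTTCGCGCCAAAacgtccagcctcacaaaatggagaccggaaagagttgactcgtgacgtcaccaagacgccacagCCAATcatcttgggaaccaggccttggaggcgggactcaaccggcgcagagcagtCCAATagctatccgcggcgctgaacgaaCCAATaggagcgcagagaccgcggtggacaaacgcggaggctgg
Ccne1, chr7:38107441-38107740, minus strand, with none of the letters searched: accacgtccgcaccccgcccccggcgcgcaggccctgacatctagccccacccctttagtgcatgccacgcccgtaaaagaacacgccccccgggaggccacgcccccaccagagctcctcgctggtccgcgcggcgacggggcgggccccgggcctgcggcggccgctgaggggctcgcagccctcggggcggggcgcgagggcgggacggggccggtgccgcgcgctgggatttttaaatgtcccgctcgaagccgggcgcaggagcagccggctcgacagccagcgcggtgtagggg
Aurka, chr2:172370521-172370820, minus strand, with a CHR match and CCAAT matches: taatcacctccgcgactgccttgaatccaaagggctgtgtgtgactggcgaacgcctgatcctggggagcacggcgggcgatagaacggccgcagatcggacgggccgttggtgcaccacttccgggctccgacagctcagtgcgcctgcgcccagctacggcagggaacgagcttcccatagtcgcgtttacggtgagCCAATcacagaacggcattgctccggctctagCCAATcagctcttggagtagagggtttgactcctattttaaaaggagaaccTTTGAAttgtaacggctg
Bub1, chr2:127831810-127832109, minus strand, with a CHR match and CCAAT matches: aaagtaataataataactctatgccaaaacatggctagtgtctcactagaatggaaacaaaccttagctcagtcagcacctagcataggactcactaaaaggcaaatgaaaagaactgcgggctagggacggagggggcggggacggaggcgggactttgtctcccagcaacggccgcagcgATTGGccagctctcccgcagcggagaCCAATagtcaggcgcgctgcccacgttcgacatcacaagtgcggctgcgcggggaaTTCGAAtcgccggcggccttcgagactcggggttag

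All values are the log2 signals deposited by the authors, and differences are differences of log2 group means. A call means a p under 0.05 after Benjamini-Hochberg adjustment over all 23332 rows, in a limma fit of all 9 samples, and "higher", "lower", "rose" and "fell" are used of called genes. No filter on low values was applied, so all 39 members were tested. Their means over the 9 samples lay between 7.03 and 11.14, and all 39 were at or above the median row, 6.35. Sample medians were 6.28 to 6.37, and correlations across rows were 0.985 to 0.993 within and 0.957 to 0.972 between genotypes. The targeted RNAs followed the labels, with Ago2 at 6.74, 6.92 and 6.65 in AGO2 null against 8.24, 8.20 and 8.24 in wild-type samples, and Dicer1 at 8.42, 8.35 and 8.35 in Dicer null against 9.17, 9.17 and 9.20 in wild-type samples. The fibroblast markers Vim and Fn1 were high in every genotype. Of 12 fibroblast markers, 7 were higher and 1 lower in AGO2 null and 1 was higher and 10 lower in Dicer null than in wild-type cells. Their summed linear signal was 23554 to 23765 in AGO2 null, 11826 to 11848 in Dicer null and 16862 to 17739 in wild-type samples. Postn, Thy1, Col1a2 and Lum had low means in Dicer null cells (3.92, 6.24, 6.36 and 4.06). The epithelial keratins Krt18 and Krt19 were higher in both null lines, which put the sum of 6 epithelial markers at 1069 to 1463 in AGO2 null, 3714 to 3986 in Dicer null and 401 to 460 in wild-type samples, while Epcam, Cdh1 and Esrp1 had means between 4.31 and 6.17 in every genotype. Sums of 5 macrophage and leukocyte markers were 223 to 249, 275 to 282 and 316 to 334, and those of 4 endothelial markers 197 to 289, 175 to 183 and 180 to 186, in the same order. The part of these marker differences in the results below was not tested.

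**Figure D1:**
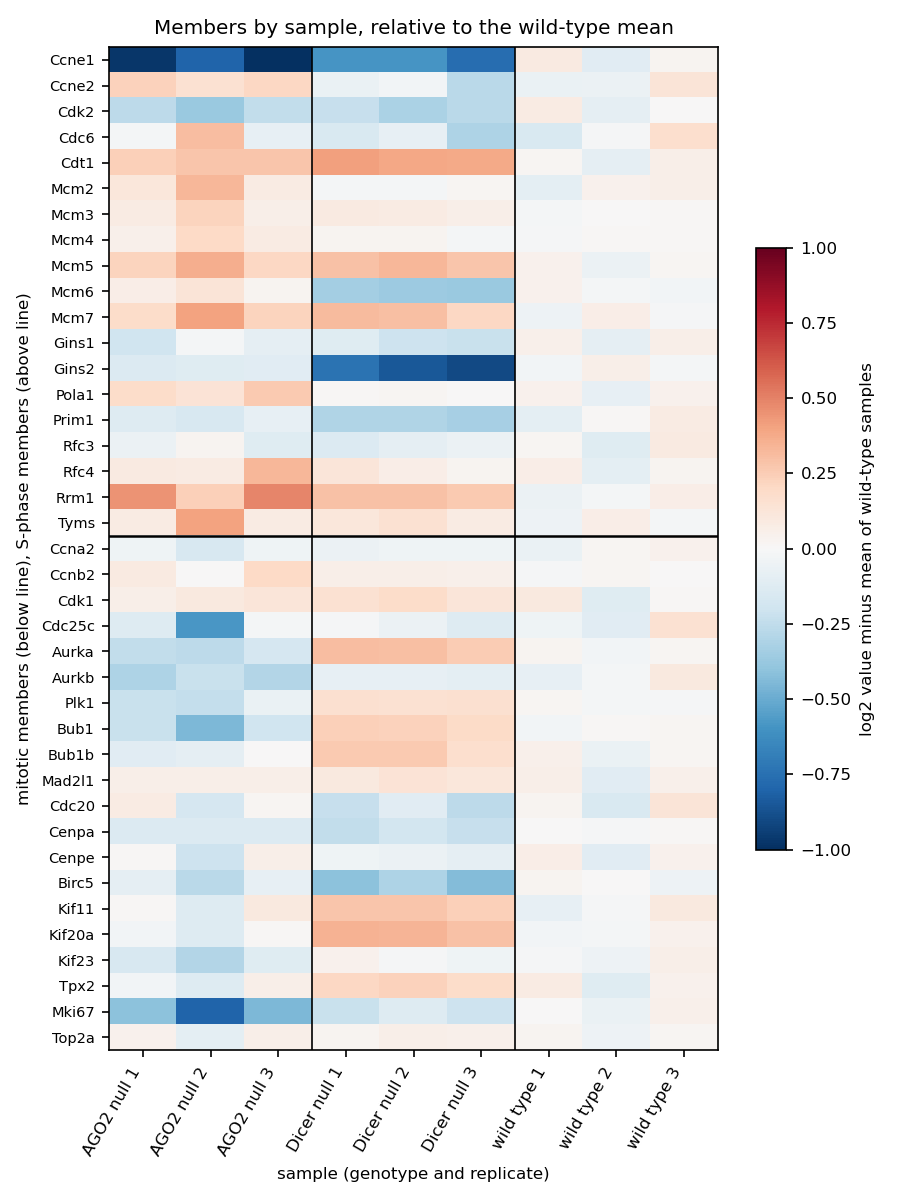
Log2 value of each of the 39 members (vertical axis, S-phase members above the line, mitotic members below it) in each of the 9 samples (horizontal axis), minus the mean of the wild-type samples, as a colour from -1 to 1. Ccne1 is low in all 6 samples of the null lines, Gins2 is low in the 3 Dicer null samples, and most other members lie near 0.

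The set as a whole did not move in 1 direction in either null line. Against wild type, 5 members were higher, 7 were lower and 27 were not called in AGO2 null cells, which is 30.8% called with a median difference of -0.03. Over all rows 21% were called, 11.8% higher and 9.17% lower, with a median of 0.02. In Dicer null cells 8 members were higher, 7 lower and 24 not called, which is 38.5% with a median of 0.01, beside 26.8% of all rows (11.2% higher, 15.7% lower; median -0.01). Bright rows, those at or above the median level, were called more often than all rows. They begin at a mean of 6.35, below the dimmest member at 7.03, so they are not matched to the members in brightness. In a separate fit of these 11666 rows, 40.7% of rows were called in AGO2 null (23.9% higher, 16.8% lower) and 50.2% in Dicer null cells (21.2% higher, 28.9% lower). In that fit 5 S-phase members were higher and 2 lower and 0 mitotic members higher and 7 lower in AGO2 null cells. In Dicer null cells it gave 4 S-phase members higher and 6 lower and 7 mitotic members higher and 2 lower. The share of members called was therefore above that of all rows and near or below that of bright rows. No member differed by 2-fold in any comparison, beside 4.17% of all rows in AGO2 null and 6.23% in Dicer null cells and 5.46% between the null lines. Samples of the groups compared did not overlap, higher or lower, for 11 and 11 members in AGO2 null against wild type, 17 and 9 in Dicer null against wild type and 9 and 13 in AGO2 null against Dicer null cells, beside 33.2%, 42.8% and 41.2% of all rows. Both comparisons use the same 3 wild-type samples, so agreement between them is not independent.

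S-phase and mitotic members were next set beside each other. In AGO2 null cells 5 S-phase members rose and 2 fell (median 0.12 over 19), and 0 mitotic members rose and 5 fell (median -0.07 over 20). Beside these stand 11.8% higher and 9.17% lower over all rows, and 23.9% and 16.8% over bright rows in their separate fit. At an unadjusted p under 0.05 in the same limma fit, 0 mitotic members were higher and 7 lower. Of 14847 named genes 5343 passed that p, 3076 higher and 2267 lower. The share of mitotic members passing in either direction was close to that of named genes. In Dicer null cells 4 S-phase members rose and 5 fell (median -0.01), and 4 mitotic members rose and 2 fell (median 0.05). The shares there were 11.2% higher and 15.7% lower over all rows, and 21.2% and 28.9% over bright rows in their separate fit. The split in AGO2 null cells depended on scaling: after quantile normalization 2 S-phase members were higher and 4 lower, and 11 mitotic members were lower with a median of -0.19. The S-phase rises in AGO2 null cells numbered 3 without any 1 of AGO2 null replicate 3, Dicer null replicates 1, 2 and 3 or wild type replicates 1 and 3, and the mitotic falls numbered 3 without any 1 wild-type replicate. In Dicer null cells the S-phase rises numbered 2 without Dicer null replicate 1 or 2 or wild type replicate 1, and the mitotic rises numbered 2 without Dicer null replicate 1 or 2, 7 without AGO2 null replicate 2 and 9 after median centring.

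**Figure D2:**
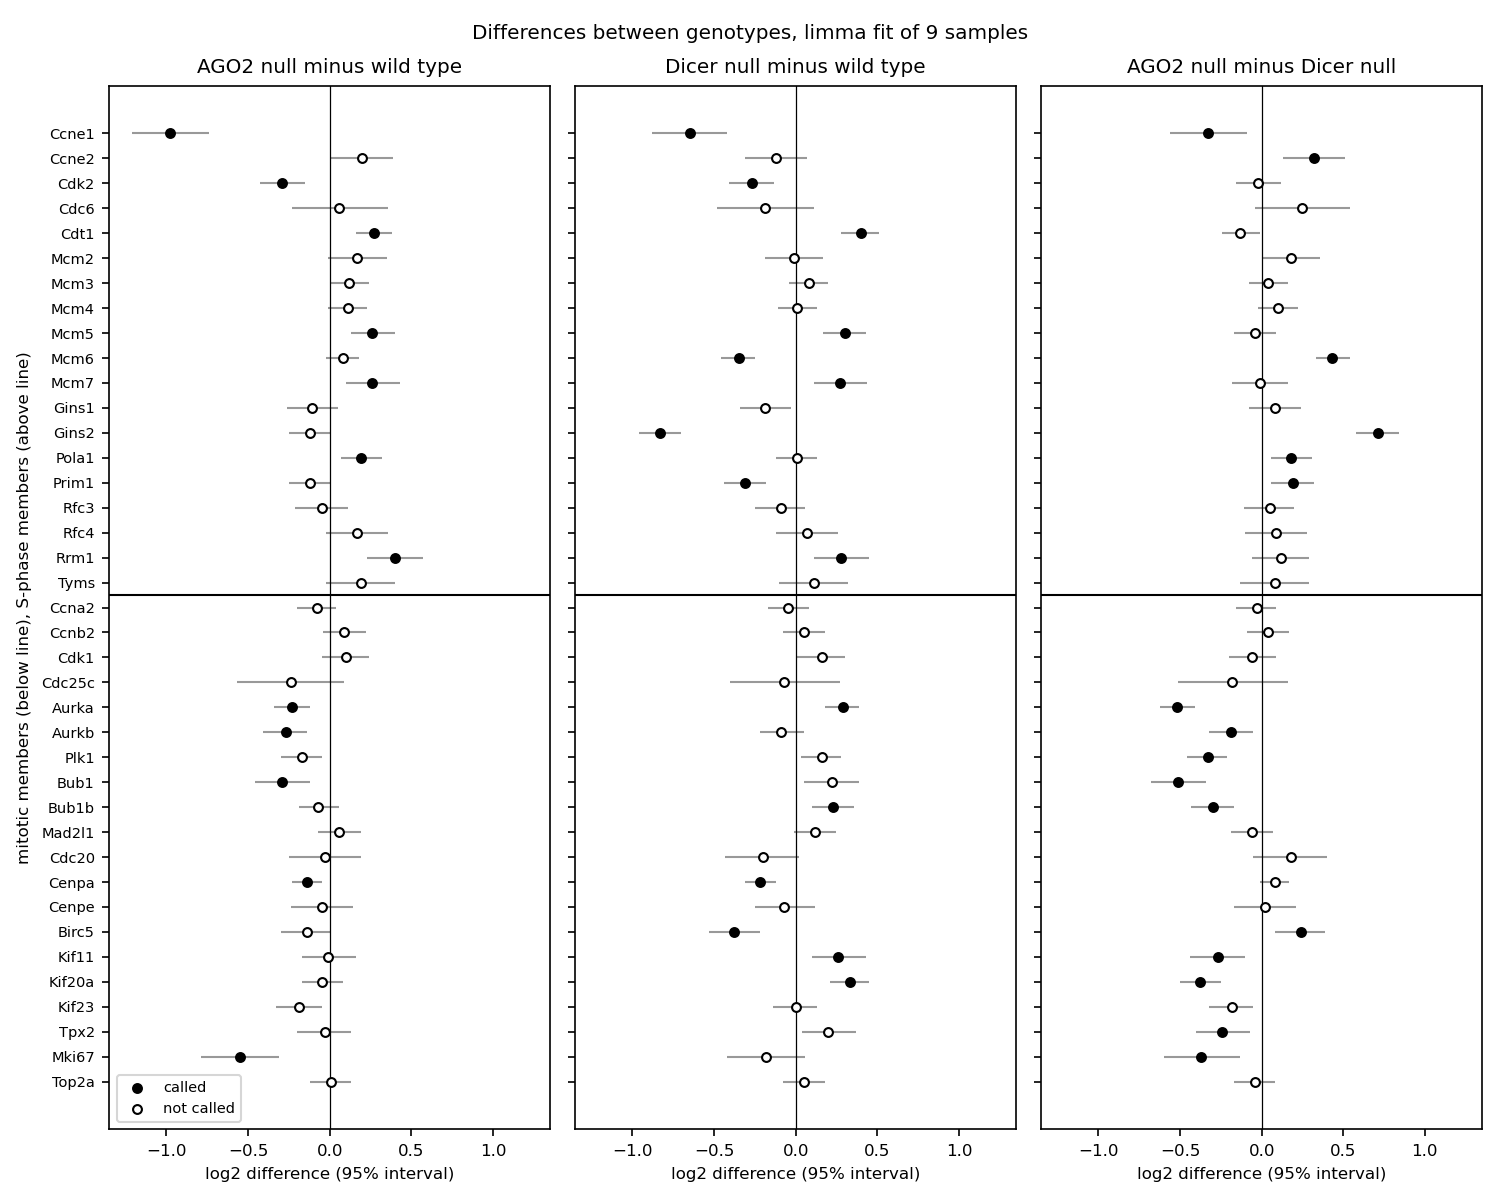
Log2 difference (horizontal axis) with its 95% confidence interval for each member (vertical axis) in AGO2 null minus wild type, Dicer null minus wild type and AGO2 null minus Dicer null cells, with called genes filled. Ccne1 lies at -0.98 and -0.65 against wild type, Gins2 at -0.83 in Dicer null and -0.12 in AGO2 null cells, and the mitotic members called between the null lines lie below 0 apart from Birc5 at 0.24.

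Cyclin E1 gave the largest difference from wild type among the members in AGO2 null cells and the second largest in Dicer null cells. Ccne1, the cyclin that activates Cdk2 at the entry into S phase, had log2 values of 7.22, 7.39 and 7.04 in AGO2 null replicates 1 to 3, of 7.60, 7.60 and 7.43 in Dicer null and of 8.28, 8.08 and 8.22 in wild-type replicates. Every null sample lay below every wild-type sample. The group means were 7.22 ± 0.17, 7.54 ± 0.10 and 8.19 ± 0.10 (SD, n = 3), a fall of -0.98 in AGO2 null cells (SE 0.10, limma adjusted p = 0.000394) and of -0.65 in Dicer null cells (SE 0.10, limma adjusted p = 0.00189). The null lines themselves differed by -0.33 (limma adjusted p = 0.0479), and that call was lost without any 1 replicate except AGO2 null replicate 2, with values from -0.38 to -0.24. Its partner kinase Cdk2 had 8.39, 8.28 and 8.40 in AGO2 null, 8.42, 8.33 and 8.38 in Dicer null and 8.73, 8.56 and 8.65 in wild-type samples. Here too all null samples lay below all wild-type samples, but the size was smaller, at -0.29 in AGO2 null (SE 0.06, limma adjusted p = 0.0114) and -0.27 in Dicer null cells (SE 0.06, limma adjusted p = 0.0122; not called without Dicer null replicate 2). Ccne2, the second E-type cyclin, did not follow Ccne1: it had 10.01, 9.93 and 9.99 in AGO2 null, 9.71, 9.75 and 9.51 in Dicer null and 9.71, 9.72 and 9.91 in wild-type samples. Neither null line was called against wild type for Ccne2 (0.20 with a 95% confidence interval of 0.01 to 0.39, and -0.12 with -0.31 to 0.07), whereas AGO2 null exceeded Dicer null cells by 0.32 (limma adjusted p = 0.023). That call was lost after quantile normalization (0.21, limma adjusted p = 0.0631) and without AGO2 null replicate 1 or 3 or Dicer null replicate 3.

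At the exon level the fall of Ccne1 was spread over the transcript. The exon-level table is a second summary of the same arrays and no independent measurement. All 15 probe sets of Ccne1 had differences below 0 in both null lines, from -1.29 to -0.46 in AGO2 null and from -1.06 to -0.18 in Dicer null cells, and 13 and 11 of them were called lower. The median of the exon probe sets of Cdk2 was not called in AGO2 null cells (-0.09, limma adjusted p = 0.561). Of all exon-level probe sets 6.35% were called lower in AGO2 null and 12.2% in Dicer null cells, and 9.07% and 8.93% were called higher.

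The origin licensing members split within their own complex in Dicer null cells only. In AGO2 null cells all 8 had differences above 0, from 0.06 to 0.27, and 3 were called. Cdt1, which loads the helicase ring onto origins, had 7.72, 7.76 and 7.76 in AGO2 null, 7.89, 7.87 and 7.86 in Dicer null and 7.50, 7.39 and 7.54 in wild-type samples. It rose by 0.27 in AGO2 null (SE 0.05, limma adjusted p = 0.0064) and by 0.40 in Dicer null cells (SE 0.05, limma adjusted p = 0.000583), with no overlap between null and wild-type samples. As a median of its 11 exon probe sets, however, Cdt1 was not called in either line (0.15 and 0.21, limma adjusted p = 0.369 and 0.168). Mcm5, a subunit of the ring, had 9.03, 9.17 and 9.02 in AGO2 null, 9.10, 9.14 and 9.09 in Dicer null and 8.85, 8.75 and 8.83 in wild-type samples. The rises of Mcm5 were 0.26 (SE 0.06, limma adjusted p = 0.0134) and 0.30 (SE 0.06, limma adjusted p = 0.00516), again without overlap. The AGO2 null call was lost after quantile normalization, and neither was called as a median of 19 exon probe sets (0.19 and 0.31, limma adjusted p = 0.259 and 0.0524). Mcm7 had 8.12, 8.34 and 8.16 in AGO2 null, 8.26, 8.24 and 8.15 in Dicer null and 7.89, 8.01 and 7.93 in wild-type samples, and rose by 0.26 (limma adjusted p = 0.0363) and 0.27 (limma adjusted p = 0.0249), the latter not called without Dicer null replicate 1 or 2 or wild type replicate 1 or 3. The call of Mcm7 in AGO2 null cells was lost after quantile normalization (0.20, limma adjusted p = 0.133) and without any 1 replicate except AGO2 null replicate 1 or wild type replicate 2.

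Mcm6, another subunit of the same ring, went the other way in Dicer null cells. Its values were 10.46, 10.52 and 10.42 in AGO2 null, 10.05, 10.03 and 10.02 in Dicer null and 10.43, 10.37 and 10.36 in wild-type samples. The 3 Dicer null samples stood apart from all others, with a fall of -0.35 against wild type (SE 0.04, limma adjusted p = 0.000655), and AGO2 null exceeded Dicer null cells by 0.43 (SE 0.04, limma adjusted p = 0.000299). Of the 20 exon probe sets of Mcm6, 10 were lower in Dicer null than in wild-type cells and 15 were higher in AGO2 null than in Dicer null cells, and none was called the opposite way (0 each). Mcm2, Mcm3 and Mcm4 were not called in any comparison; their differences were 0.17, 0.12 and 0.11 in AGO2 null and -0.01, 0.08 and 0.01 in Dicer null cells. Cdc6, the other loading factor, was not called either, at 0.06 (95% confidence interval -0.23 to 0.36) and -0.19 (-0.48 to 0.11).

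Gins2 carried the largest difference of the set in Dicer null cells. GINS is the complex that joins Cdc45 and the Mcm ring to make the moving helicase. Gins2 had 10.55, 10.57 and 10.58 in AGO2 null, 9.95, 9.84 and 9.79 in Dicer null and 10.66, 10.75 and 10.67 in wild-type samples. It fell by -0.83 in Dicer null cells (SE 0.06, limma adjusted p = 2.03e-05) and differed by 0.71 between AGO2 null and Dicer null cells (SE 0.06, limma adjusted p = 7.61e-05). In AGO2 null cells the difference was -0.12 (95% confidence interval -0.25 to 0.01, not called), although its 3 samples lay below the 3 wild-type samples, and after quantile normalization it was called lower there too (-0.24, limma adjusted p = 0.0164). All 4 exon probe sets of Gins2 were called lower in Dicer null cells, within -0.86 to -0.75. Gins1, a second subunit, was not called, at -0.11 in AGO2 null and -0.19 in Dicer null cells (95% confidence interval -0.34 to -0.03).

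**Figure D3:**
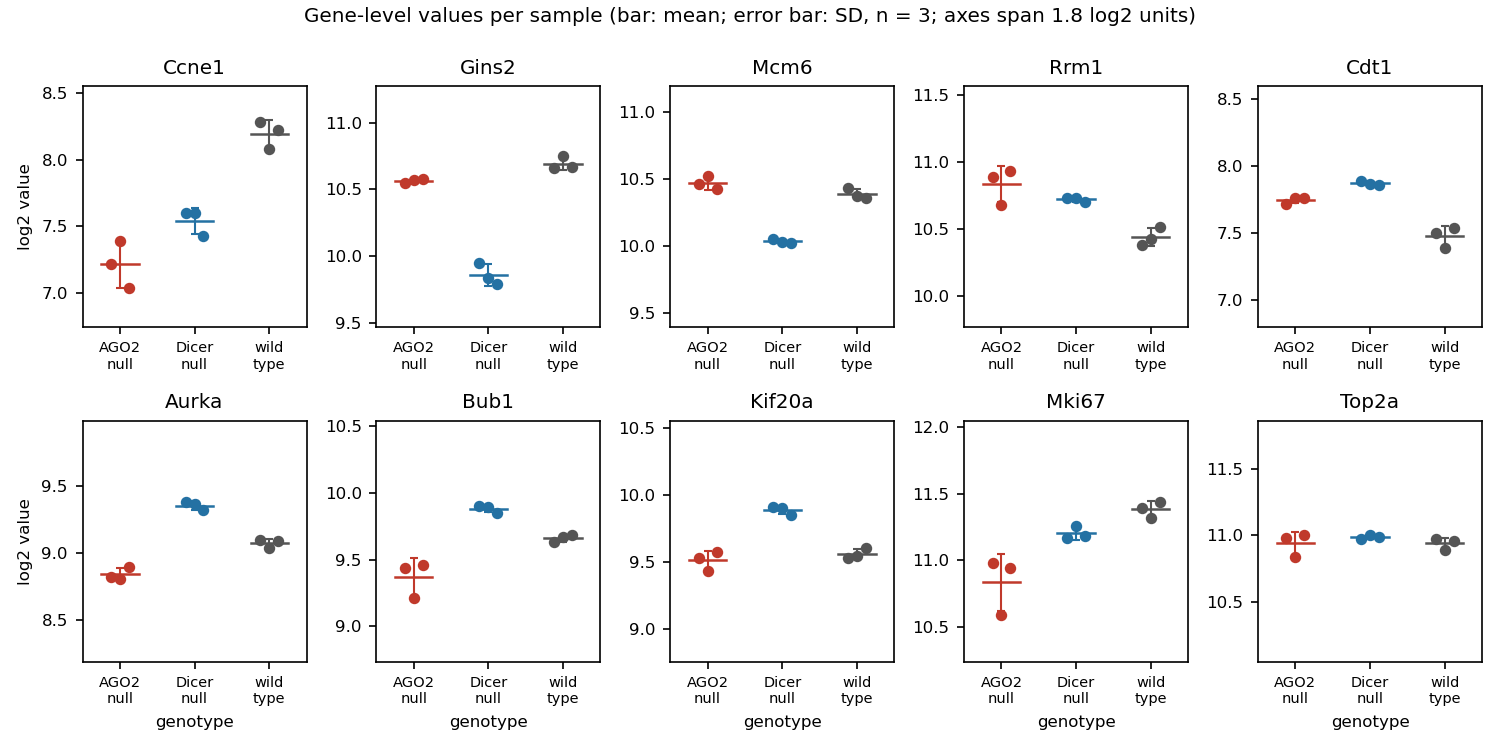
Log2 value (vertical axes, all spanning the same range of log2 units) of 10 members in each sample by genotype (horizontal axes), with the mean and SD of 3 samples. The null samples of Ccne1 lie below wild type, the Dicer null samples of Gins2 and Mcm6 lie below both other genotypes, those of Aurka, Bub1 and Kif20a lie above them, and Top2a overlaps throughout apart from a Dicer null group that just clears wild type.

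Among the polymerase, clamp and loader genes the differences were smaller. Prim1, the catalytic subunit of primase, had 11.01, 10.98 and 11.06 in AGO2 null, 10.84, 10.84 and 10.81 in Dicer null and 11.04, 11.15 and 11.22 in wild-type samples. Dicer null samples were the lowest for Prim1, by -0.31 against wild type (SE 0.06, limma adjusted p = 0.00447). Pola1, the catalytic subunit of polymerase alpha that works with primase, had 9.20, 9.16 and 9.28 in AGO2 null, 9.03, 9.04 and 9.02 in Dicer null and 9.06, 8.94 and 9.06 in wild-type samples. AGO2 null samples were the highest for Pola1, by 0.19 against wild type (SE 0.05, limma adjusted p = 0.0414), a call that did not hold after quantile normalization (0.08, limma adjusted p = 0.279) or without any 1 replicate except AGO2 null replicate 2. Against Dicer null cells, AGO2 null cells were higher by 0.19 for Prim1 (limma adjusted p = 0.0428) and by 0.18 for Pola1 (limma adjusted p = 0.0397). Neither of those calls held after quantile normalization or median centring, nor without any 1 of AGO2 null replicates 1 and 3 and the 3 Dicer null replicates; wild type replicate 2 for Prim1 and wild type replicates 1 and 3 for Pola1 had the same effect. Rfc3 and Rfc4, subunits of the clamp loader, were not called, with differences of -0.05 and 0.17 in AGO2 null and -0.09 and 0.07 in Dicer null cells. The clamp itself, Pcna, was measured on 15 exon probe sets only, with sample medians averaging 12.06 ± 0.05, 12.07 ± 0.05 and 11.94 ± 0.02 (SD, n = 3) in AGO2 null, Dicer null and wild-type cells. The differences of 0.11 and 0.12 from wild type were not called (limma adjusted p = 0.4 and 0.332).

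For nucleotide supply, Rrm1 was higher in both null lines. Rrm1, the large subunit of ribonucleotide reductase that makes deoxyribonucleotides, had 10.89, 10.68 and 10.93 in AGO2 null, 10.73, 10.73 and 10.70 in Dicer null and 10.38, 10.42 and 10.51 in wild-type samples. The lowest null sample stood above the highest wild-type sample. The rises were 0.40 in AGO2 null (SE 0.07, limma adjusted p = 0.00729) and 0.28 in Dicer null cells (SE 0.07, limma adjusted p = 0.0253), the latter not called without any 1 Dicer null replicate or without wild type replicate 1 or 2. All 20 exon probe sets of Rrm1 had differences above 0 in both lines, with 12 and 3 called higher. Tyms, thymidylate synthase, was not called, at 0.19 (95% confidence interval -0.02 to 0.40) and 0.11 (-0.10 to 0.32).

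The mitotic kinases showed the only member called in opposite directions in the null lines. Aurka, the Aurora kinase of centrosomes and spindle poles, had 8.82, 8.81 and 8.90 in AGO2 null, 9.38, 9.37 and 9.32 in Dicer null and 9.10, 9.04 and 9.09 in wild-type samples. The genotypes formed 3 separate groups with wild type in the middle. Aurka fell by -0.23 in AGO2 null cells (SE 0.05, limma adjusted p = 0.0095), rose by 0.29 in Dicer null cells (SE 0.05, limma adjusted p = 0.00226) and differed by -0.52 between them (SE 0.05, limma adjusted p = 0.000134). Of its 12 exon probe sets 10 were called lower in AGO2 null than in Dicer null cells. Against wild type, 5 were higher and 1 lower in Dicer null cells. In AGO2 null cells only that same 1 was called lower (-0.95), though all 12 lay below 0. The median of the 12 probe sets was called lower in AGO2 null cells (-0.39, limma adjusted p = 0.0165). The median of those probe sets was not called for Dicer null against wild type (0.21, limma adjusted p = 0.139). Aurkb, the Aurora kinase of the chromosomal passenger complex, had 9.48, 9.57 and 9.50 in AGO2 null, 9.71, 9.71 and 9.69 in Dicer null and 9.71, 9.77 and 9.89 in wild-type samples. The AGO2 null samples of Aurkb stood apart from wild type, by -0.27 (SE 0.06, limma adjusted p = 0.0129). This call was lost as a median of exon probe sets (-0.32, limma adjusted p = 0.0744) and in a fit of the 6 samples compared (limma adjusted p = 0.0566). They were below Dicer null cells by -0.19 (limma adjusted p = 0.0489), a call lost without any 1 of AGO2 null replicates 1 and 3, the 3 Dicer null replicates and wild type replicate 2.

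Plk1, which acts at centrosomes and kinetochores, had 8.90, 8.88 and 9.05 in AGO2 null, 9.28, 9.27 and 9.28 in Dicer null and 9.14, 9.10 and 9.11 in wild-type samples. The 3 genotypes did not overlap for Plk1, yet only the difference between the null lines was called, at -0.33 (SE 0.05, limma adjusted p = 0.00292); against wild type the values were -0.17 and 0.16 (limma adjusted p = 0.0597 and 0.0656). A second and dimmer row of Plk1, with means of 5.02 to 5.32, was instead higher in both null lines, by 0.24 and 0.30, and gave -0.06 between them (not called), so the rows of this gene disagree. Cdk1, the central mitotic kinase, and its cyclin Ccnb2 were not called in any comparison. Their differences were 0.10 and 0.09 in AGO2 null and 0.16 and 0.05 in Dicer null cells. Ccna2, the cyclin of S phase and G2, had 95% confidence intervals of -0.20 to 0.04 and -0.17 to 0.08. Cdc25c, a phosphatase that activates Cdk1, was the least precise of these kinase genes, at -0.24 (-0.57 to 0.09) and -0.07 (-0.40 to 0.27).

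The spindle checkpoint kinases Bub1 and Bub1b lay lower in AGO2 null than in Dicer null cells. Bub1 had 9.44, 9.21 and 9.46 in AGO2 null, 9.90, 9.89 and 9.85 in Dicer null and 9.63, 9.67 and 9.68 in wild-type samples. These groups did not overlap, and AGO2 null was below Dicer null by -0.51 (SE 0.07, limma adjusted p = 0.00142). Against wild type Bub1 fell by -0.29 in AGO2 null cells (SE 0.07, limma adjusted p = 0.0249), a call lost without any 1 wild-type replicate, and was at 0.22 in Dicer null cells (limma adjusted p = 0.057, not called). All 28 exon probe sets of Bub1 were below 0 between the null lines, and 20 were called. Bub1b, which encodes BubR1, had 9.33, 9.35 and 9.44 in AGO2 null, 9.70, 9.70 and 9.61 in Dicer null and 9.49, 9.37 and 9.46 in wild-type samples. Dicer null samples were the highest for Bub1b, by 0.23 against wild type (SE 0.05, limma adjusted p = 0.0161; not called without Dicer null replicate 1 or 2), and AGO2 null was below Dicer null by -0.30 (SE 0.05, limma adjusted p = 0.00537). Mad2l1, a partner in the same checkpoint, and Cdc20, the activator that the checkpoint restrains, were not called, at 0.06 and -0.03 in AGO2 null and 0.12 and -0.20 in Dicer null cells.

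Birc5 and Cenpa fell in Dicer null cells, where Aurka, Bub1b, Kif11 and Kif20a rose. Birc5, the survivin subunit of the passenger complex, had 10.40, 10.22 and 10.41 in AGO2 null, 10.08, 10.18 and 10.06 in Dicer null and 10.52, 10.49 and 10.44 in wild-type samples. It fell by -0.38 in Dicer null cells (SE 0.07, limma adjusted p = 0.00376), with no Dicer null sample reaching a wild-type sample, and was at -0.14 in AGO2 null cells (limma adjusted p = 0.19, not called). The difference of 0.24 between AGO2 null and Dicer null cells (limma adjusted p = 0.0347) was lost after quantile normalization (0.13, limma adjusted p = 0.219) and after median centring. It was also lost without any 1 of AGO2 null replicates 1 and 3, Dicer null replicates 1 and 3 and wild type replicates 1 and 2. Cenpa, the histone H3 variant that marks centromeres, had 8.18 in each AGO2 null sample, 8.07, 8.14 and 8.09 in Dicer null and 8.32, 8.31 and 8.33 in wild-type samples. The fall of Cenpa was -0.14 in AGO2 null (SE 0.04, limma adjusted p = 0.0451) and -0.22 in Dicer null cells (SE 0.04, limma adjusted p = 0.00474). The first of these calls was lost with any 1 of the 9 samples left out, and the second after quantile normalization (-0.14, limma adjusted p = 0.0573). Cenpe, a kinetochore motor, was not called, at -0.05 and -0.07.

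Among the spindle motors and their partners, the calls against wild type were confined to Dicer null cells in this fit. Kif20a, a kinesin of the central spindle, had 9.53, 9.43 and 9.57 in AGO2 null, 9.91, 9.90 and 9.85 in Dicer null and 9.53, 9.54 and 9.60 in wild-type samples. All Dicer null samples of Kif20a exceeded the 6 others, by 0.33 against wild type (SE 0.05, limma adjusted p = 0.00239) and with AGO2 null below Dicer null by -0.38 (SE 0.05, limma adjusted p = 0.00145). At the exon level, 12 of its 25 probe sets were called higher in Dicer null than in wild-type cells and 0 were called in AGO2 null cells. Kif11, the motor that pushes spindle poles apart, had 10.22, 10.08 and 10.31 in AGO2 null, 10.49, 10.49 and 10.45 in Dicer null and 10.13, 10.20 and 10.31 in wild-type samples. Kif11 was higher in Dicer null cells by 0.26 (limma adjusted p = 0.0295), a call lost without any 1 Dicer null replicate or wild type replicate 1 or 2. It was at -0.01 in AGO2 null cells (limma adjusted p = 0.96), and the difference of -0.27 between the null lines (limma adjusted p = 0.0268) was lost without AGO2 null replicate 1 or 2 or any 1 Dicer null replicate. Tpx2, which activates Aurka on the spindle, was called only between the null lines, at -0.24 (limma adjusted p = 0.0425), and not without any 1 of AGO2 null replicates 1 and 2, the 3 Dicer null replicates and wild type replicate 3. Kif23, a motor of the central spindle, was called in none, with 95% confidence intervals of -0.33 to -0.05 in AGO2 null and -0.14 to 0.13 in Dicer null cells.

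The proliferation marker Mki67 and the topoisomerase gene Top2a parted. Mki67, which coats mitotic chromosomes, had 10.98, 10.59 and 10.94 in AGO2 null, 11.17, 11.26 and 11.18 in Dicer null and 11.39, 11.32 and 11.44 in wild-type samples. The groups did not overlap, and AGO2 null cells were lower by -0.55 than wild type (SE 0.10, limma adjusted p = 0.00743), or by -0.43 without AGO2 null replicate 2, its lowest sample. Dicer null cells were at -0.18 (limma adjusted p = 0.262, not called; limma adjusted p = 0.0289 without AGO2 null replicate 2). The difference of -0.37 between the null lines (limma adjusted p = 0.0339) was lost without any 1 Dicer null replicate or without wild type replicate 1 or 3. Of the 5 exon probe sets of Mki67, all lay below 0 in both lines and 3 were called lower in AGO2 null cells. Top2a, which untangles DNA before chromosomes separate, had 10.98, 10.84 and 11.00 in AGO2 null, 10.97, 11.00 and 10.99 in Dicer null and 10.97, 10.89 and 10.96 in wild-type samples. It was not called in any comparison, with 95% confidence intervals of -0.12 to 0.13 and -0.08 to 0.18 against wild type.

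**Figure D4:**
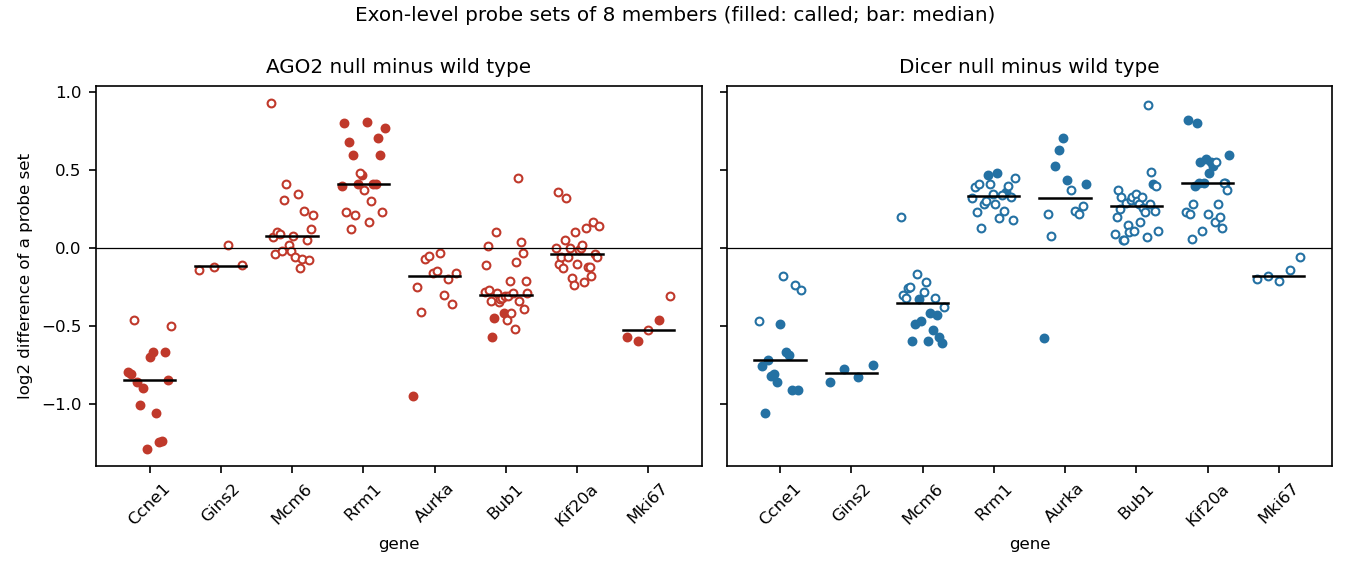
Log2 difference from wild type (vertical axis) of each exon-level probe set of 8 members (horizontal axis) in AGO2 null (left) and Dicer null cells (right), filled where called, with the median as a bar. All 15 probe sets of Ccne1 lie below 0 in both panels, all 4 of Gins2 are called on the right, and 1 probe set of Aurka lies far below the other 11.

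The direct comparison of the null lines gave the widest gap between S-phase and mitotic members. In AGO2 null against Dicer null cells 5 S-phase members were higher and 1 was lower (median 0.09), while 1 mitotic member was higher and 9 were lower (median -0.18). Over all rows 26.3% were called, 16.9% higher and 9.45% lower, with a median of 0.03. The median was 0.06 over named genes and 0.07 over bright rows, close to that of the S-phase members. In the separate fit of bright rows 49.1% were called, 32.4% higher and 16.7% lower, whereas the member counts above are from the fit of all rows. The mitotic members called lower were Aurka, Bub1, Kif20a, Mki67, Plk1, Bub1b, Kif11, Tpx2 and Aurkb, and the member called higher was Birc5. Exon probe sets gave 4 higher and 76 lower of 372 for mitotic members and 26 higher and 5 lower of 310 for S-phase members. Over all exon-level probe sets 12.6% were higher and 6.08% lower, so the S-phase share called higher was below that of all probe sets. Probe sets of 1 gene are not independent, and few genes gave most of these calls. Bub1 gave 20 of the 76, Bub1b 13, Aurka and Kif20a 10 each and Plk1 8, and Mcm6 gave 15 of the 26. The 81 member probe sets called lower numbered 34 without Dicer null replicate 1 or 2, 40 without Dicer null replicate 3, 42 without AGO2 null replicate 1, 51 with the replicate block and 144 after median centring. After quantile normalization the S-phase side became 2 higher and 4 lower (median -0.05), while the mitotic median was -0.29. With 1 replicate left out the mitotic count ranged from 5 to 9 lower, the lowest without any 1 Dicer null replicate; the S-phase count was 2 higher without AGO2 null replicate 1 or 3 or Dicer null replicate 3 and 3 without Dicer null replicate 1 or 2.

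Replicates of the AGO2 null line did not vary alike in the 2 groups of genes. AGO2 null replicate 2 was the highest of its 3 samples for 12 of 19 S-phase members and the lowest for 15 of 20 mitotic members. The median S-phase member of replicates 1, 2 and 3 stood at 0.08, 0.15 and 0.08 from the wild-type mean, and the median mitotic member at -0.06, -0.17 and -0.01. Dicer null replicates were close together, at -0.02 in each for S phase and 0.05, 0.06 and 0.05 for mitosis. Even so, Dicer null replicate 3 was the lowest of its 3 samples for 16 of 19 S-phase and 14 of 20 mitotic members. Wild-type replicates stood at -0.01, -0.02 and 0.03 for S phase and 0.01, -0.04 and 0.04 for mitosis. Wild type replicate 2 was the lowest of its 3 samples for 8 of 19 S-phase and 13 of 20 mitotic members. Without AGO2 null replicate 2, AGO2 null cells had 4 S-phase members higher and 2 lower and 0 mitotic members higher and 4 lower than wild type, and the medians were 0.07 and -0.05. Against Dicer null cells the counts without it were 6 and 1 for S phase and 1 and 7 for mitosis. The median replicate SD of a member was 0.084 for S phase and 0.09 for mitosis in AGO2 null, 0.035 and 0.03 in Dicer null and 0.073 and 0.059 in wild-type cells.

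**Figure D5:**
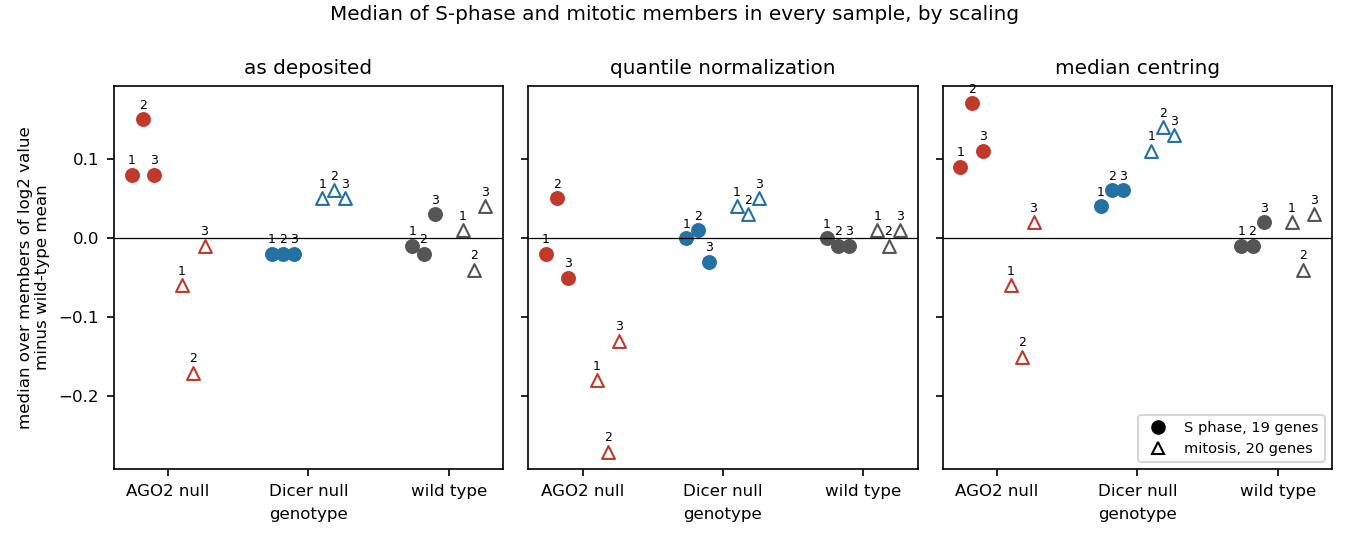
Median over members of the log2 value minus the wild-type mean (vertical axis) in every sample by genotype (horizontal axis), for S-phase (circles) and mitotic members (triangles), with replicate numbers, as deposited, after quantile normalization and after median centring. AGO2 null replicate 2 has the highest S-phase and the lowest mitotic median of its genotype under each scaling, and quantile normalization lowers all AGO2 null medians.

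Some regulators around these genes differed by more than any member. Of 133 other cell cycle genes in 10 lists, 119 had a row; 14 were higher and 16 lower in AGO2 null (25.2%) and 22 higher and 27 lower in Dicer null cells (41.2%), of which 2 and 5 differed by at least 2-fold. Of all 14847 named genes 25.2% and 32.8% were called in the same fit, so the 119 genes were called at or above the share of named genes. In the separate fit of bright rows 40.7% and 50.2% were called, but the 119 genes were not counted in that fit. The counts of single lists that follow are few genes each and are read against the shares of named genes, with 30.3% called between the null lines. The Cdk inhibitors, which restrain cyclin-dependent kinases, had 0 higher and 4 lower of 6 measured in AGO2 null and 0 higher and 5 lower in Dicer null cells. Cdkn1a, which encodes p21, had 7.83, 7.71 and 7.58 in AGO2 null, 7.55, 7.60 and 7.23 in Dicer null and 8.63, 8.62 and 8.81 in wild-type samples, a fall of -0.98 and -1.23 (limma adjusted p = 0.00075 and 0.000125). Cdkn1c, which encodes p57, fell by -0.77 and -0.33, and Cdkn2c fell by -0.65 and -0.76. In Dicer null cells Cdkn2a, at -0.86, and Cdkn2b, at -0.57, were called lower, and both were higher in AGO2 null than in Dicer null cells (0.70 and 0.79). Neither call of Cdkn2a held as a median of exon probe sets. Of the 5 cyclin D and G1 kinase genes, 1 was higher and 2 were lower in each null line. Cdk6, a kinase that acts with D-type cyclins on Rb, had 8.73, 9.27 and 8.70 in AGO2 null, 9.47, 9.46 and 9.37 in Dicer null and 7.56, 7.20 and 7.53 in wild-type samples, a rise of 1.47 and 2.0 (limma adjusted p = 0.000607 and 6.08e-05). Ccnd1, cyclin D1, had 6.94, 7.40 and 7.00 in AGO2 null, 7.18, 6.94 and 6.76 in Dicer null and 7.98, 8.10 and 8.37 in wild-type samples, a fall of -1.03 and -1.19 (limma adjusted p = 0.00344 and 0.00104). Its other kinase partner Cdk4 fell by -0.20 and -0.25. Neither was called as a median of exon probe sets. The first was also lost without AGO2 null replicate 1 or 3 or wild type replicate 2 or 3, and the second after median centring. Of the 71 called differences picked by size from these lists, here and in the next paragraphs, 44 were called under every alternative run. Leaving out 1 replicate ended, besides those of Cdk4 and Pttg1, the calls of Gmnn, Orc1, Rfc5, E2f8, Mycn and Shmt1 in AGO2 null cells, of Cenpn and Rbbp4 in Dicer null cells and of Cdk6, E2f5, Mycn, Myc, Fbxo5, Shmt1, Knl1, Ect2 and Cdc23 between the null lines, for at least 1 replicate each. The calls of Anapc5, Fen1 and Smc2 in Dicer null and of Ttk in AGO2 null cells were lost as medians of exon probe sets, and that of E2f6 between the null lines after quantile normalization.

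Among 11 measured Rb family and E2F genes, 2 were higher and 1 lower in AGO2 null and 4 higher and 3 lower in Dicer null cells. E2f5 rose by 0.84 and 1.10 and the E2F partner Tfdp2 by 0.46 and 0.48. Rb1 fell by -0.49 and E2f1 by -0.45 in Dicer null cells, E2f8 fell by -0.24 in AGO2 null cells, and between the null lines Rb1 (0.59) and E2f6 (0.38) were higher and E2f5 (-0.26) lower in AGO2 null cells. Of 7 measured genes in the list of DREAM, B-Myb and FoxM1 genes, which also held the Myc genes, 1 was higher and 0 lower in AGO2 null and 1 higher and 1 lower in Dicer null cells. Mycn rose by 0.62 and 1.26, and the chromatin subunit Rbbp4 fell by -0.28 in Dicer null cells. The Mycn call in AGO2 null cells was lost without any 1 replicate except wild type replicate 2. Myc was called only between the null lines (0.94, limma adjusted p = 0.0485). It had 8.44, 9.66 and 8.56 in AGO2 null and 8.07, 7.96 and 7.82 in Dicer null samples, where AGO2 null replicate 2 stood far above its 2 fellows. This Myc call was lost after quantile normalization, after median centring and with the offset. It was also lost without any 1 replicate except AGO2 null replicate 1 or 2. Checkpoint kinases and phosphatases gave 0 calls of 7 in AGO2 null cells. There limma counted 2 at an unadjusted p under 0.05, beside 5343 of 14847 named genes. In Dicer null cells 1 was called, Cdc25a at 0.74, a phosphatase that activates Cdk2.

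Other origin and fork genes moved in both directions, with 6 higher and 3 lower of 28 measured in AGO2 null and 7 higher and 9 lower in Dicer null cells. Cdc7, the kinase that fires licensed origins, had 7.40, 7.42 and 7.24 in AGO2 null, 7.66, 7.66 and 7.62 in Dicer null and 8.28, 8.18 and 8.33 in wild-type samples. Its samples did not overlap between any genotypes, and it fell by -0.91 and -0.61 (limma adjusted p = 5.21e-05 and 0.000233). In AGO2 null cells Gmnn, the inhibitor of Cdt1, rose by 0.52, the origin subunit Orc1 rose by 0.39 and the clamp loader subunit Rfc5 fell by -0.24. In Dicer null cells the flap nuclease Fen1 rose by 0.53, Orc5 rose by 0.52 and the primase subunit Prim2 fell by -0.49, beside -0.31 for Prim1. Between the null lines Prim2 (0.57) and Orc1 (0.53) were higher and the polymerase subunits Pold2 (-0.62) and Pole (-0.54) lower in AGO2 null cells. Against wild type Pold2 was called lower in AGO2 null (-0.21) and higher in Dicer null cells (0.42). The polymerase subunit Pole2, given for the same pattern, was called higher in AGO2 null (0.26) and lower in Dicer null cells (-0.23). Among 5 other nucleotide supply genes, 2 were higher and 0 lower in AGO2 null and 1 higher and 1 lower in Dicer null cells. Ctps, a CTP synthase, rose by 0.96 and 0.38, Shmt1, a folate enzyme of thymidylate supply, rose by 0.71 in AGO2 null cells, and thymidine kinase Tk1 fell by -0.93 in Dicer null cells. Ctps (0.58) and Shmt1 (0.77) were also higher in AGO2 null than in Dicer null cells.

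Mitotic genes outside the member list were described in the same way. Of 29 other kinetochore, spindle and checkpoint genes, 1 was higher and 5 lower in AGO2 null and 3 higher and 1 lower in Dicer null cells. That is 20.7% and 13.8% called, below the 25.2% and 32.8% of named genes. In AGO2 null against Dicer null cells 1 was higher and 11 lower (41.4%, beside 30.3% of named genes and 26.3% of all rows). The share of bright rows, 49.1%, is from their separate fit, in which these genes were not counted. Racgap1, the partner of Kif23, had 8.42, 8.24 and 8.48 in AGO2 null, 9.16, 9.11 and 8.99 in Dicer null and 8.58, 8.51 and 8.54 in wild-type samples, with 0.54 in Dicer null cells and -0.71 between the null lines (limma adjusted p = 0.00108 and 0.000354). Cep55, which acts in the final cut between daughter cells, rose by 0.42 and 0.84, while the centromere gene Cenpn fell by -0.57 and -0.31 and the checkpoint kinase Ttk by -0.34 in AGO2 null cells. The kinetochore gene Knl1 (-0.59) was lower and Ect2 (0.28), which acts in cytokinesis, higher in AGO2 null than in Dicer null cells. Among 9 cohesin, condensin and separase genes, 0 were higher and 1 lower in AGO2 null, 3 higher and 1 lower in Dicer null, and 0 higher and 6 lower between the null lines. Securin, encoded by Pttg1, had 9.40, 9.53 and 9.63 in AGO2 null, 10.25, 10.38 and 10.24 in Dicer null and 9.84, 9.71 and 9.85 in wild-type samples. Like Aurka and the replication genes Pold2 and Pole2, it was called in opposite directions, at -0.28 and 0.49 (limma adjusted p = 0.0326 and 0.00182). The first of these calls was lost after median centring (-0.27, limma adjusted p = 0.0502) and without any 1 of AGO2 null replicates 1 and 2, Dicer null replicates 1 and 3 and wild type replicates 1 and 3. Its target separase, Espl1, was higher in Dicer null cells (0.48; -0.55 between the null lines). The condensin subunit Smc2 fell by -0.26 in Dicer null cells. Of 12 anaphase-promoting complex genes, 1 was higher and 0 lower in AGO2 null and 1 higher and 4 lower in Dicer null cells, with the subunit Anapc1 at 0.59 and 0.87, the inhibitor Fbxo5 at -0.57 and the subunit Anapc5 at -0.28 in Dicer null cells. Between the null lines Fbxo5 (0.35) was higher and Anapc1 (-0.28) and Cdc23 (-0.20) lower in AGO2 null cells.

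Of the 39 members, 17 were called in none of the 3 comparisons: Cdc6, Mcm2, Mcm3, Mcm4, Gins1, Rfc3, Rfc4, Tyms, Ccna2, Ccnb2, Cdk1, Cdc25c, Mad2l1, Cdc20, Cenpe, Kif23 and Top2a. As medians of exon probe sets, calls were also lost for Bub1, Cenpa and Mcm7 in AGO2 null and Cenpa in Dicer null cells, and between the null lines for Birc5, Ccne1, Kif11, Mki67, Pola1, Prim1, Tpx2 and Aurkb. A missed threshold does not show that these genes were equal between genotypes.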

How the data were processed

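RNA of MEFs of 3 genotypes was labelled with biotin and hybridised to exon arrays, and each of the 9 arrays appears as a gene-level and an exon-level sample (18 in the labels). The authors deposited log2 signals for 23332 gene-level rows and, separately, for 229581 exon-level probe sets. How background, summarisation and normalization were handled is not given in the sources used here. The submitters' processing notes name the build mm8. Array number limits the precision. Symbols came from the platform annotation, updated through the RefSeq table of GRCm38.p6, used for names and promoter letters only (14996 gene-level rows had 1 symbol, 1019 several, 7317 none). A further row shared by Tyms and its pseudogene was not used.

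Groups were taken from the labels. The deposited log2 values were fitted as they stand with limma 3.58.1 in R 4.3.3 (lmFit, eBayes without trend, genotype means, 6 residual degrees of freedom), with Benjamini-Hochberg adjustment over each whole table. Intervals are at 95%. The code was tested on simulated data. A gene list is described by its counts and median, with no set test. Per comparison and role group, the called members that moved most, at most 2 up and 2 down, are given with every sample, or the brightest member where none was called; per pathway list the same number of called genes is named, and other members are given more briefly. Members and lists were chosen with earlier results of these data known. Alternatives were quantile normalization, median centring, removal of dim rows, a fit of the 6 samples compared, an intensity trend, a replicate block, an offset of 50 on the linear scale, the second row of a gene, medians of exon probe sets and each sample left out.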

Additional observations from a re-analysis of the deposited data

Results flagged for a closer look

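Aurka, the spindle pole kinase, was lower in AGO2 null and higher in Dicer null cells than in the same wild-type cells, and the difference between the null lines was itself tested (log2 difference -0.52, SE 0.05, limma adjusted p = 0.000134, with the 3 samples of each genotype apart from those of the others). It was the only member called in opposite directions against wild type, although the median of its exon probe sets was not called for Dicer null against wild type (0.21, limma adjusted p = 0.139). For AGO2 null against wild type that median was called (-0.39, limma adjusted p = 0.0165), but only 1 of the 12 probe sets was. Groups of 3 samples are too small for the test of a single distant sample, which was not run.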

How the results depend on the processing

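Of 43 called member differences, 16 were called under every alternative run, and the medians of exon probe sets lost the most calls (19), followed by Dicer null replicate 1 or 2 left out (15 each); 44 of 71 called differences named for the pathway lists held throughout. Kif11 in AGO2 null against wild type, not called at -0.01, changed sign to 0.01 after median centring, 0.05 without AGO2 null replicate 2, 0.04 without wild type replicate 3 and 0.10 with exon medians. Counts below are members called, as S-phase or mitotic, against main counts in the report; the cause of each change was not tested. Quantile normalization gave, in AGO2 null against wild type, 2 S-phase higher, 4 lower and 11 mitotic lower (mitotic median -0.19), in Dicer null 1 mitotic lower, and between the null lines 2 S-phase higher, 4 lower and 0 mitotic higher (medians -0.05 and -0.29). Median centring gave 9 mitotic higher in Dicer null, and between the null lines 3 S-phase higher, 2 lower and 0 mitotic higher. The share of all calls that were higher, 56.4%, 41.6% and 64.1% in the 3 comparisons, was 45.6%, 49.7% and 47.5% after quantile normalization and 60.1%, 54.7% and 54% after centring. The fit of 6 samples gave 2 S-phase higher and 2 mitotic lower in AGO2 null, and 0 S-phase lower and 0 mitotic higher between the null lines. Exon medians gave 2 S-phase higher, 1 lower and 2 mitotic lower in AGO2 null, 2 S-phase higher in Dicer null, and 3 S-phase higher, 0 lower, 0 mitotic higher and 5 lower between the null lines (S-phase median 0.21). Removing dim rows or adding the offset gave 7 mitotic higher in Dicer null; the offset gave 2 S-phase lower between the null lines, and the second row 1 mitotic higher in AGO2 null. Whether the replicate numbers pair the samples was not tested. Deviations of same-numbered samples correlated at -0.097 to 0.191 (9 pairs) and those of others at -0.18 to 0.139 (18 pairs), which are overlapping ranges. The replicate block gave 3 mitotic lower in AGO2 null, 2 S-phase higher, 0 lower and 0 mitotic higher between the null lines, and for exon probe sets 24 lower in AGO2 null, 25 higher in Dicer null and 51 lower between them; without the block these were 38, 45 and 81. Exon probe sets between the null lines were 16 higher after quantile normalization and 13 higher and 144 lower after centring; in Dicer null, centring gave 88 higher and 26 lower; the fit of 6 samples gave 9 higher and 20 lower in AGO2 null. Leaving out 1 sample gave 3 to 4 S-phase higher, 2 to 2 lower, 0 to 0 mitotic higher and 3 to 5 lower in AGO2 null (medians 0.07 to 0.15 and -0.10 to -0.05). For Dicer null it gave 2 to 4 S-phase higher, 4 to 6 lower, 2 to 7 mitotic higher and 2 to 3 lower (medians -0.06 to 0.01 and 0.04 to 0.06). Between the null lines it gave 2 to 6 S-phase higher, 0 to 1 lower, 0 to 1 mitotic higher and 5 to 9 lower (medians 0.05 to 0.13 and -0.20 to -0.10). Exon probe sets ranged over 9 to 45 higher and 21 to 30 lower in AGO2 null, 12 to 59 and 20 to 46 in Dicer null and 13 to 39 and 34 to 79 between them. No detection measure was used, so signal over background was not examined.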

Other observations

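One exon probe set of Aurka departed from the rest of the gene: its difference from wild type was -0.95 in AGO2 null and -0.58 in Dicer null cells, whereas the other 11 probe sets lay above 0 in Dicer null cells, up to 0.71. Exon probe sets of Mcm6 included 1 at 0.93 in AGO2 null cells, beside a median of 0.08 for that gene. These probe sets were picked after their values had been seen.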
